A study of Mus musculus with 27 samples.

Results

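The genes described here code for the proteins of the cytosolic ribosome. They were taken from the deposited count table by name: every gene annotated as protein-coding whose symbol starts with Rpl or Rps followed by a digit, without the Rps6k kinases. That rule found 90 of the 55487 genes in the table, 54 with an Rpl name (large subunit) and 36 with an Rps name (small subunit). Of the 90, 73 are the standard single-locus genes of the ribosome (called core genes below) and 8 are paralogs such as Rpl22l1, Rpl39l and Rps27l. Another 7 carry a pseudogene-like name although they are annotated as protein-coding, and 2 (Rps19bp1 and Rps23rg1) fit the naming rule without being standard subunits: Rps19bp1 encodes a nucleolar partner of the small subunit protein made from Rps19, and Rps23rg1 is a retrogene. The rule leaves out 7 genes of the cytosolic ribosome that are named otherwise (such as Rplp0, Rpsa and Rack1), and these are given separately.

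RNA was sequenced from 27 libraries of primary mouse cells: microglia shaken off mixed glial cultures, macrophages (BMDM) that had been differentiated out of marrow cells by M-CSF, and hepatocytes plated on collagen. Each cell type was kept for 24 h in serum-free medium with ethanol vehicle, 10 µM 24(S)-saringosterol (a sterol) or 1 µM of a synthetic compound that the labels spell GW3596, GW3964 and GW3965, called GW here; GW3965 is known as an agonist of the liver X receptors. Each of the 9 groups held 3 libraries. The medium during treatment was Williams' E based for hepatocytes and DMEM/F12 based, with M-CSF and albumin among its additions, for both of the other cell types, so a difference between hepatocytes and these cells cannot be told apart from the medium. Whether the 3 libraries of a group stem from different animals or cultures is not stated in the labels, so p-values measure only the spread between these libraries.

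Ribosomal proteins are made in nearly equal numbers, since each is present once in a ribosome, and their genes are among the most uniformly transcribed of any cell. Their mRNAs typically begin at a cytosine followed by a run of pyrimidines, the 5′ terminal oligopyrimidine (TOP) motif, through which the mTOR pathway controls how strongly they are translated. Most of the genes also have many processed pseudogenes, intronless copies elsewhere in the genome, which makes short reads hard to assign. In bulk RNA, fewer cells of a type and less RNA per cell cannot be told apart.

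Library totals ran from 30295862 to 41040268 counts, of which the 90 genes took between 0.590% and 1.23%. All 14 macrophage markers of a fixed list were present at 1 CPM (counts scaled to the same library total) or more in every microglial and BMDM library. All 14 hepatocyte markers found in the table were at that level in every hepatocyte library, while their summed level in microglia was at most 0.286 CPM, with Serpina1c, Fga, Fgg and Cyp3a11 at 0. Of 11 markers of homeostatic microglia, 9 reached 1 CPM in every microglial library, and Siglech was at 0 there; 6 of the 11 also reached it in every BMDM library. The hepatocyte markers summed to at most 1.58 CPM in BMDM. In hepatocytes the macrophage markers summed to 919 to 1019 CPM, with Cd14 at 564 to 652 CPM and Cd68 at 324 to 374 CPM. There, 3 of the 14 reached 1 CPM in every library. The homeostatic microglia markers summed to 95.9 to 108 CPM in hepatocytes, with Sall1 at 69.3 to 80.1 CPM against 2.06 to 3.55 CPM in microglia. The third BMDM library with saringosterol stood apart in 17 interferon-stimulated genes, whose summed level was 1159 CPM against 216 and 251 CPM in the other libraries of its group.

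The Rps27 family is printed because the genes with the largest rises in microglia belong to it and because it shows how little sequence separates some members. Rps27, a small subunit protein with a zinc finger, lies on the minus strand at chr3:90212522-90213651 (GRCm38), the single-exon copy Rps27rt at chr9:114982366-114982739 on the minus strand, and the paralog Rps27l at chr9:66946086-66949516 on the plus strand. The coding sequences without the stop codon, from the GENCODE M21 transcripts, run 5′ to 3′ with capitals at bases that differ from Rps27.
Rps27: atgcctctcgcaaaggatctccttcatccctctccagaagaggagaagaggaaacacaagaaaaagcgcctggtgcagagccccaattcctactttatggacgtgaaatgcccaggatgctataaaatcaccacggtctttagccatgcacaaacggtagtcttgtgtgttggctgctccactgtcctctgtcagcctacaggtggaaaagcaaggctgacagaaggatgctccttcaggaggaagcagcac
Rps27rt: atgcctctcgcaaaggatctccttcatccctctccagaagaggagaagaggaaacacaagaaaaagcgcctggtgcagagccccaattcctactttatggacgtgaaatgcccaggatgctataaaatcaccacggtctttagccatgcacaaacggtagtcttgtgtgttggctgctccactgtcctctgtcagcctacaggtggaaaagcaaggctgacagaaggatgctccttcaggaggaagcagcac
Rps27l: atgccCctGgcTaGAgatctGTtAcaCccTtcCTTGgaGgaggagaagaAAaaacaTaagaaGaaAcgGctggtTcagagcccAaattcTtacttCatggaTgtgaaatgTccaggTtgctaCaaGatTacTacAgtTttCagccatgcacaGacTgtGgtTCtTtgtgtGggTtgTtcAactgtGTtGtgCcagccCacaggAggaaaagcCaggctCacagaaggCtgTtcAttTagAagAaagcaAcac
The Rps27 and Rps27rt sequences were identical over all 252 bases, and Rps27l differed at 60 of them (76.2% identity). Counts of Rps27 and Rps27rt are therefore uncertain, since the sources used here do not say how reads that fit several genes were treated.

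The start sites of genes that changed in microglia are printed to show whether the pyrimidine run is there. Rpl3, which also rose there with GW, had no promoter entry and is missing. Each line gives 15 bases before and 15 from the RefSeq start (GRCm38.p6) of a gene, 5′ to 3′, with capitals on the longest run of at least 5 pyrimidines that begins with C. The windows are Rps27 at chr3:90213634-90213663 (minus strand), Rps27rt at chr9:114982725-114982754 (minus), Rpl10a at chr17:28328456-28328485 (plus, the first of 2 listed starts), Rpl13 at chr8:123102335-123102364 (plus), Rps19bp1 at chr15:80264292-80264321 (minus) and Rpl7l1 at chr17:46782642-46782671 (minus).
Rps27: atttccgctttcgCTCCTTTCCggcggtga
Rps27rt: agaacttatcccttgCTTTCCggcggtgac
Rpl10a: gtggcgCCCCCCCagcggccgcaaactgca
Rpl13: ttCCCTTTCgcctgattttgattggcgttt
Rps19bp1: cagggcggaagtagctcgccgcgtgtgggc
Rpl7l1: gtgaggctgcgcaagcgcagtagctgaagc
The printed windows of Rps27, Rps27rt, Rpl10a and Rpl13 held such a run, and those of Rps19bp1 and Rpl7l1 held none. The run of Rpl10a and that of Rpl13 ended before the listed start, and the second listed start of Rpl10a (chr17:28328550-28328579) had no run in its window. RefSeq listed 76 promoters for 64 of the 90 genes. A run of this kind within 15 bases of the start was found in 59.2% of them and in 36.4% of all 32851 promoters, and a run of 5 beginning within 5 bases of the start in 42.1% against 18.3%. Over the whole 300 bases (250 before the start and 50 from it, both strands), CCGGAAG stood in 32.9% of the promoters of these genes against 8.86% of all, CGGAAGT, which can overlap it, in 30.3% against 6.42%, CTCTTTC in 27.6% against 8.16%, ATGGCG in 31.6% against 8.93% and TATAAA in 7.89% against 13.6%. These are matches of letters, not sites shown to be bound.

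The level of each gene was read from the deposited TPM values, which scale each library to one total and divide by the length of all exons of a gene. Those lengths were a median of 2.29 times the length of the principal transcript for these genes, so TPM is low for a gene whose annotation holds many exons. Averaged over the 27 libraries, the core genes had a median of 148.5 TPM, and 61 of the 73 lay within 4-fold of it. The 5 highest members were Rps27l (863 TPM), Rpl4 (711.5 TPM), Rps3a1 (688 TPM), Rpl36 (568 TPM) and Rpl32 (562 TPM). Rpl4 and Rpl32 are proteins of the large subunit, Rps3a1 one of the small subunit, and Rps27l is known as a p53-induced paralog. At the other end, Rps18-ps6 had no count in any library. Its level is uncertain, since 96.4% of its exon bases lie in Rps18-ps4 and 3.52% of its 50-base windows occur in no other gene. Rps23rg1, Rpl10l, Rpl36-ps4 and Rpl3l averaged 0.22 TPM or less. Rpl10l is known from testis and Rpl3l from striated muscle.

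A few core genes were listed at levels far below the rest. Rps10 averaged 0.851 TPM, Rpl24 1.26 TPM and Rpl13a 8.57 TPM, and the paralog Rpl36al 7.14 TPM. Each of these 4 overlaps a second annotated gene (Gm49804, Gm28037, Gm45713 and Gm49383) on the same strand, with between 20.6% and 47.0% of the exon bases shared, and each of those second genes had 0 counts in all 27 libraries. The levels of these 4 members are therefore uncertain and say nothing about their true abundance. More widely, a median of 38.3% of the 50-base windows of a member's transcript occurred in no other gene, 56 members were under 50% and only 5 at 100%. Rps27 was the lowest, with 1.35% of its windows its own and 98.65% shared with Rps27rt. Across the 73 core genes, Spearman's rho with mean TPM was 0.23 for the share of own windows and -0.48 for the exon length the authors used; genes are not independent replicates, and length also enters the TPM.

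Hepatocytes gave these genes the largest share of their counts and vehicle microglia the smallest. In vehicle, the 90 genes together took 0.590%, 0.610% and 0.613% of the counts of the 3 microglial libraries, 0.750%, 0.732% and 0.714% in BMDM, and 1.22%, 1.19% and 1.20% in hepatocytes. These 3 sets did not overlap. The share holds only reads that were assigned to these genes. Since reads that fit several genes may be missing from it, it is not a measure of all their mRNA. The ratio of large to small subunit counts stayed close to constant, with group means between 1.19 and 1.30. Of the 73 core genes, 67 had their highest group mean of TPM in hepatocytes and 50 their lowest in vehicle microglia. The first of these counts depends on the scale. In the edgeR test of the vehicle groups given below, 45 of the 73 were higher and 13 lower in hepatocytes than in BMDM.

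**Figure D1:**
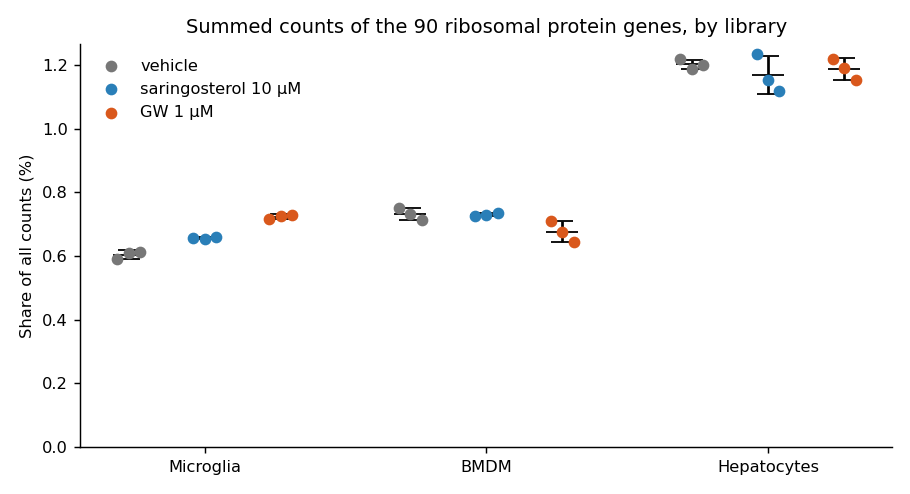
Share of all counts taken by the 90 genes in each of the 27 libraries (y axis, percent), grouped by cell type on the x axis and coloured by treatment; points are libraries, and bars give the mean ± SD of 3. Microglia rise from vehicle (0.604%) through saringosterol (0.656%) to GW (0.724%), BMDM with GW (0.677%) lie below their vehicle (0.732%), and hepatocytes stay near 1.2% in every group.

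The comparison of the vehicle groups asked how the 3 cell types differ at rest. It used edgeR's quasi-likelihood test on the counts of all 27 libraries, with 86 of the 90 members passing the filter on low counts and adjusted p-values (Benjamini-Hochberg) under 0.05 called. Against microglia, 70 of the 86 were higher in hepatocytes and 3 lower, with a median log2 difference of 0.54, where 36.2% of all 18979 genes tested were higher, 37.3% were lower and their median was -0.04. Against BMDM, 65 of the 86 were lower in microglia and 2 higher (median -0.32), where 22% of all genes were lower, 24.6% were higher and the median was 0.00. Against BMDM, 48 were higher in hepatocytes and 18 lower (median 0.25), beside 37.5% and 37.7% of all genes. With scaling by library totals in place of TMM, the median of all genes itself moved to 0.33 and 0.37 in the 2 hepatocyte comparisons, and the split of members became 75 to 1 and 66 to 4.

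The rises in hepatocytes against microglia included Rps27l, Rpl7a, Rps2 and Rpl5. Rps27l stood at 497, 484 and 459 TPM in vehicle microglia, 566, 513 and 499 TPM in vehicle BMDM and 1497, 1651 and 1564 TPM in vehicle hepatocytes, and was higher in hepatocytes by 1.395 ± 0.058 (log2, SE; adjusted p = 2.3e-21, edgeR). Rpl7a, a large subunit protein, read 67.8, 70.1 and 73.8 TPM in microglia and 223.7, 199.0 and 214.7 TPM in hepatocytes, a log2 difference of 1.28. Rps2, at 169 against 504 TPM, and Rpl5, at 52.7 against 148 TPM (group means), differed by 1.26 and 1.18. Rpl5 is known to bind Mdm2 together with Rpl11. In none of these 4 did a hepatocyte library overlap a microglial one, which adds no separate support, since they were named for their large rises.

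Some members went against the rest. Rpl26, a large subunit protein at the peptide exit tunnel, averaged 65.0 TPM in vehicle microglia, 96.3 TPM in BMDM and 62.9 TPM in hepatocytes; hepatocytes were lower than BMDM by -1.03 ± 0.08 and than microglia by -0.36. Rps29, a small zinc-binding protein, differed by -0.35 between hepatocytes and microglia. By library totals the 2 differences from microglia were 0.02 and 0.03, without a call, so their direction depends on the scaling. Rpl30 was lower in microglia than in BMDM by -0.90 ± 0.07 (18.5 against 32.0 TPM), the largest fall of a core gene in that comparison. Rpl29, whose TPM averaged 11.53 in BMDM and 36.04 in hepatocytes, differed by 1.23.

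Paralogs differed in their order over the cell types. Rpl39l, a paralog of Rpl39 known from germ cells, had 86, 64 and 81 counts in vehicle microglia, 11, 18 and 10 in BMDM, and 1, 2 and 1 in hepatocytes. It was higher in microglia than in BMDM by 2.41 ± 0.38 (adjusted p = 3.5e-06); the fitted log2 difference of -6.06 between hepatocytes and microglia rests on those few counts. Its partner Rpl39 averaged 51.2, 67.8 and 114.8 TPM in the same groups. Rpl7l1, a nucleolar relative of Rpl7, was higher in microglia than in BMDM by 0.54 ± 0.05 and in hepatocytes than in BMDM by 1.16 ± 0.05, with 96.4, 61.9 and 184 TPM in microglia, BMDM and hepatocytes. Rpl22l1 ran the other way: it was lower in microglia than in BMDM by -1.22 ± 0.17 and in hepatocytes than in BMDM by -1.38 ± 0.17, from 16.38, 12.85 and 11.57 TPM in BMDM to 7.334, 6.838 and 4.595 TPM in microglia and 5.965, 7.26 and 7.675 TPM in hepatocytes. Rpl22, its partner, averaged 30.02, 38.05 and 45.45 TPM in microglia, BMDM and hepatocytes.

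The other pairs of a gene and its copy were less clear. Rpl36al averaged 6.206, 6.529 and 7.053 TPM in vehicle microglia, BMDM and hepatocytes and passed no test between them, while its partner Rpl36a averaged 40.91, 57.36 and 98.11 TPM and was higher in hepatocytes than in microglia by 0.95 ± 0.08. Rpl9 averaged 73.31, 85.80 and 162.3 TPM, and its copy Rpl9-ps6 18.74, 25.73 and 30.97 TPM. Rpl9-ps6 was lower in microglia than in BMDM (-0.56 ± 0.22) and passed neither hepatocyte test; the first call was lost with library totals (-0.53) and without microglial vehicle replicate 1 or 3 or BMDM vehicle replicate 1 or 2 (-0.59 to -0.39). Against microglia, Rpl9-ps6 was higher in hepatocytes with library totals (0.79, adjusted p = 0.0023, edgeR), without the filter (0.47) and without microglial vehicle replicate 2 (0.57). The pseudogene-named Rpl10-ps3 was lower than in BMDM by -1.02 ± 0.41 in microglia and by -1.20 ± 0.40 in hepatocytes, with 40.26, 54.72 and 33.24 TPM in BMDM, and Rpl36a-ps1 was lower in microglia by -0.76 ± 0.21. The microglial call of Rpl10-ps3 was lost with library totals, without the filter, and without any single microglial vehicle library or BMDM vehicle replicate 1 or 2 (-1.16 to -0.81). Its hepatocyte call was lost with library totals (-0.79) and without BMDM vehicle replicate 2 or hepatocyte vehicle replicate 1 (-0.99). Rpl10, the partner of Rpl10-ps3, averaged 209.2, 260.4 and 335.9 TPM. Since 96.11% of the windows of Rpl10-ps3 also occur in Rpl10, these differences are uncertain.

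Among the remaining partners, Rps4x averaged 119.1, 157.7 and 310.3 TPM in microglia, BMDM and hepatocytes, and Rps19, which is mutated in Diamond-Blackfan anaemia, 89.62, 124.7 and 147.0 TPM. Rps19 was higher in hepatocytes than in microglia by 0.40 ± 0.05 but lower than in BMDM by -0.18 ± 0.05; by library totals the second difference was 0.23. Rps27rt was lower in microglia than in BMDM by -1.06, with 23.56, 22.47 and 17.96 TPM against 45.37, 54.41 and 24.58 TPM. Rpl3l had 4, 7 and 10 counts in BMDM and 0, 2 and 4 in hepatocytes, and its fitted difference of -2.23 rests on those few counts.

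**Figure D2:**
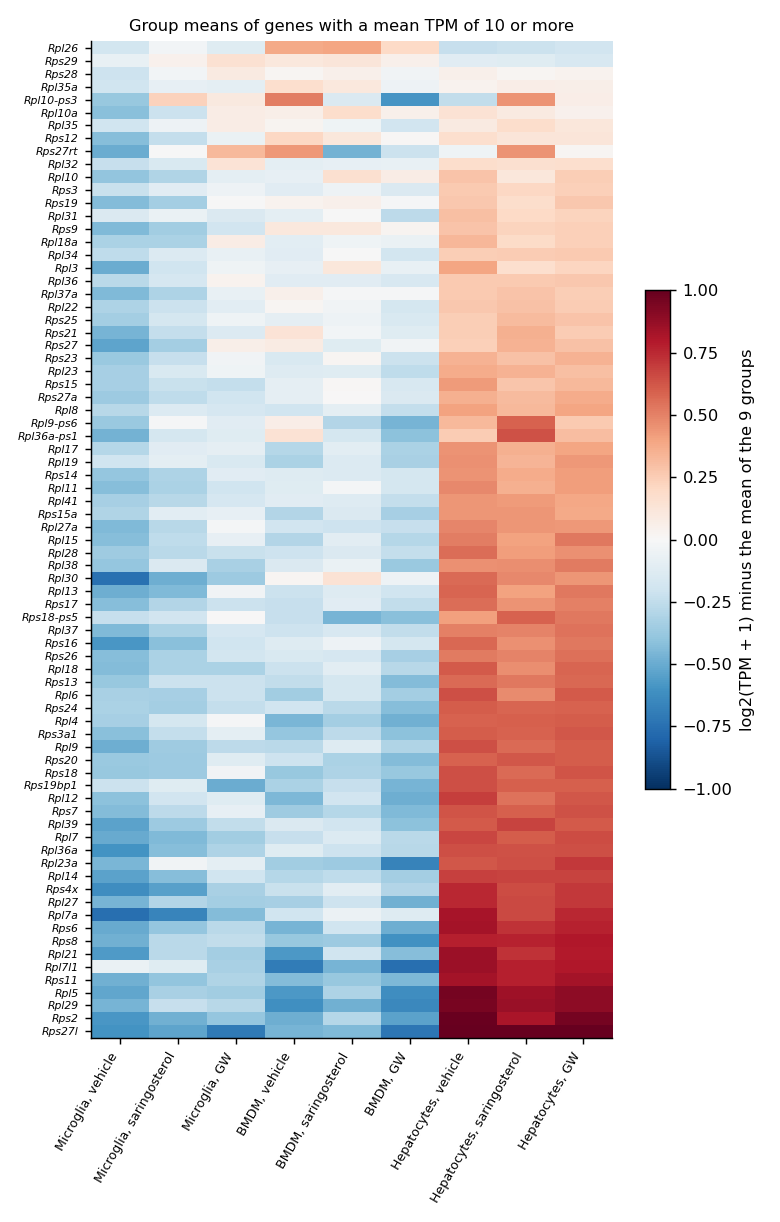
Group means of log2(TPM + 1) for genes with a mean TPM of 10 or more (1 such gene is not drawn), each row a gene, each column one of the 9 groups, coloured by the difference from the gene's mean over the groups (log2 units, colours saturating at 1). Rows are ordered by the mean difference in hepatocytes. Most rows are red in the hepatocyte columns, and vehicle microglia is the bluest column; Rps27l, Rps2, Rpl29 and Rpl5 are the lowest rows, with the darkest red, and Rpl26 and Rps29 stand at the top, where the hepatocyte columns are pale blue.

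Among genes with a mean TPM of 10 or more, the most variable over the 9 group means included Rps27l (SD of log2(TPM + 1) 0.87), Rps2 (0.70), Rpl29 (0.69) and Rpl5 (0.68). The least variable were Rps28 (0.09), Rpl35a (0.12), Rps29 (0.12), Rpl35 (0.13) and Rpl32 (0.16). Rps28 ran only from 51.9 TPM in vehicle microglia to 64.0 TPM in microglia with GW. Within a group, the coefficient of variation of a core gene had a median of 3.87% over its 3 libraries.

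The treatment that moved these genes most was GW in microglia, where they rose together. The summed share was 0.716%, 0.726% and 0.729% with GW against 0.590%, 0.610% and 0.613% in vehicle, a log2 ratio of 0.26 with no overlap. Of the 84 members tested in microglia, 65 rose and 2 fell, where 13.4% of the 16065 genes tested rose and 15.2% fell; the median of the members was 0.31 and that of all genes -0.01. The 6 members not tested there, for low counts, were Rpl10l, Rpl36-ps4, Rpl3l, Rpl9-ps1, Rps18-ps6 and Rps23rg1. Of the 73 core genes 64 rose and none fell. By subunit, 35 of 50 Rpl genes and 30 of 34 Rps genes rose, with medians of 0.32 and 0.31. In 72 members every GW library lay above every vehicle library on the log2 CPM scale, where 19.5% of all genes did so.

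Rps27 read 37.4, 41.2 and 37.7 CPM in vehicle and 57.8, 60.4 and 57.4 CPM with GW, a rise of 0.65 ± 0.06 (adjusted p = 1.6e-10, edgeR). Rpl3, a large subunit protein near the peptidyl transferase centre, went from 105, 110 and 116 CPM to 147, 155 and 155 CPM, a rise of 0.53 ± 0.05 (adjusted p = 2.0e-10). Rpl10a went from 59.2, 62.7 and 71.2 CPM to 89.6, 88.5 and 95.6 CPM (0.56 ± 0.06), and Rpl13 from 208, 228 and 251 CPM to 301, 318 and 323 CPM (0.51 ± 0.08). In each of these 4 genes the lowest GW library was above the highest vehicle library, which adds no separate support, since they were named for their large rises. Few of their 50-base windows are their own: 1.35% for Rps27, 14.4% for Rpl3, 11.9% for Rpl10a and 19.7% for Rpl13. Their counts are uncertain to that extent. Rps27rt had the largest fitted rise, 0.91 ± 0.27 (adjusted p = 0.021), from 2.98, 2.86 and 2.27 CPM to 4.54, 6.35 and 3.75 CPM, but it was not called without vehicle replicate 1, 2 or 3 or GW replicate 2 (0.68 to 0.98), and its reads cannot be told from those of Rps27 over the coding sequence.

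The 2 members that fell are not standard subunits. Rps19bp1 read 25.2, 28.0 and 26.8 CPM in vehicle and 22.6, 22.4 and 20.9 CPM with GW, a fall of -0.22 ± 0.07 (adjusted p = 0.018), which was not called without vehicle replicate 2 or 3 or GW replicate 3 (-0.20 to -0.18), so that 1 member then fell. Rpl7l1 read 111.5, 117 and 114 CPM in vehicle and 93.8, 99.7 and 93.7 CPM with GW (-0.19 ± 0.04, adjusted p = 0.0010). Both have most of their 50-base windows to themselves (100% and 87.8%). Rps27l, with 137, 135 and 127 CPM in vehicle and 126, 123 and 120 CPM with GW, did not pass the test (-0.05).

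**Figure D3:**
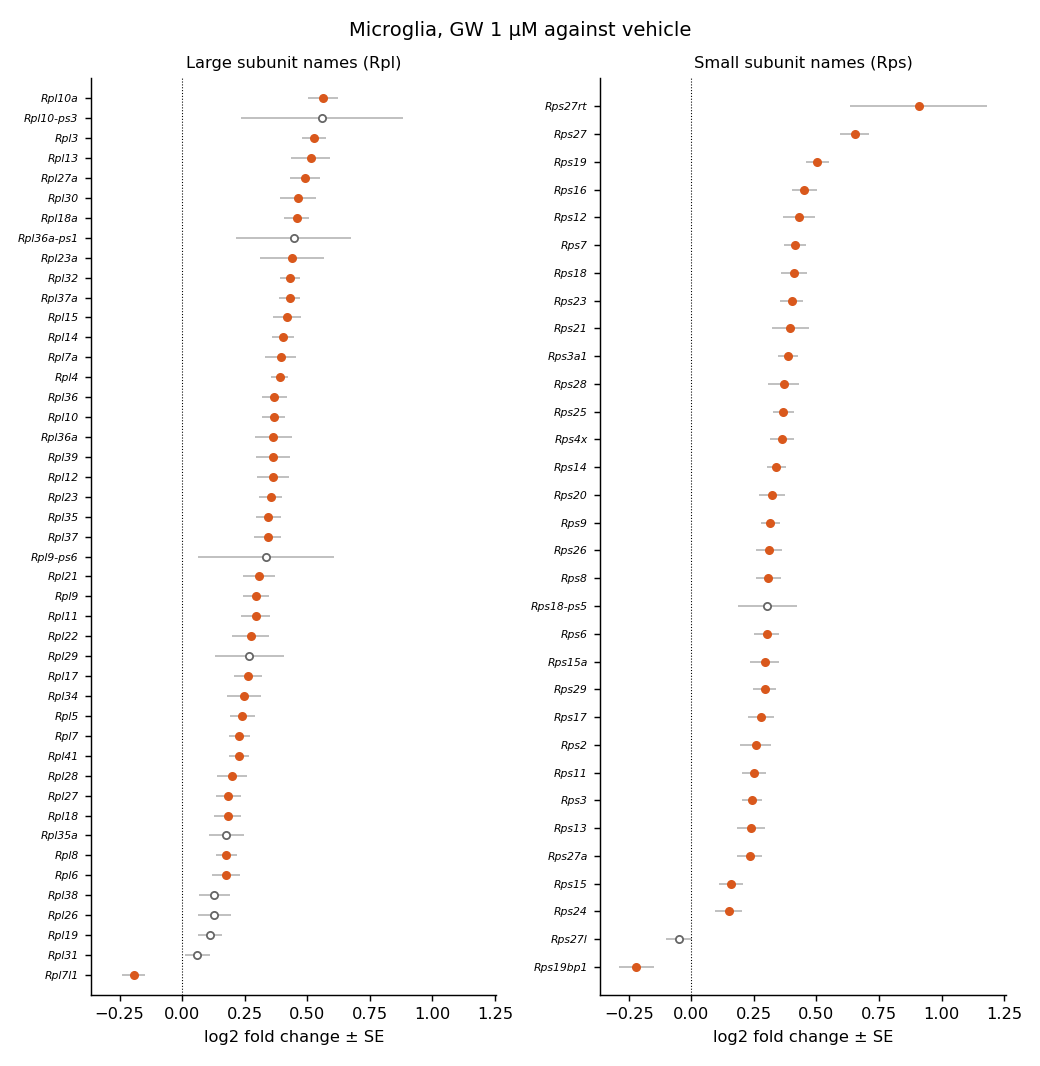
Log2 fold change with GW against vehicle in microglia (x axis, ± SE of the edgeR fit) of genes with a mean TPM of 10 or more (1 such gene is not drawn), large subunit names on the left and small subunit names on the right, ordered by size. Filled points passed an adjusted p of 0.05 and open points did not; Rps19bp1 (-0.22) and Rpl7l1 (-0.19) are the filled points left of 0, and Rps27rt (0.91) lies farthest right, with the widest bar among the filled points.

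Rises were found among members with many and with few windows of their own. Of the 29 tested members with at least 50% own windows, 25 rose and 2 fell (median 0.32), and of the 55 with fewer, 40 rose and none fell (median 0.31). Among the 157 ribosomal protein pseudogenes tested, 13 rose and none fell, with a median of 0.28, beside the 13.4% of all genes that rose and the 15.2% that fell. Of the 7 ribosomal genes named otherwise 6 rose, among them Rplp0 (0.20), Rplp1 (0.25), Rack1 (0.18) and Rpsa (0.42). Of 6 elongation factors 4 rose, among them Eef1a1 (0.51 ± 0.04), which brings aminoacyl-tRNA to the ribosome, and Eef2 (0.29), which drives translocation.

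The genes that build the ribosome and start translation were counted beside the same shares of all genes, 13.4% higher and 15.2% lower. Of 40 ribosome biogenesis genes 1 rose and 11 fell with GW in microglia (median -0.09). The falls included Sbds (-0.32), a maturation factor of the large ribosomal subunit, Utp14a (-0.33) and Polr1a (-0.26), the large subunit of RNA polymerase I. Nmd3 (-0.21), which exports the large ribosomal subunit, fell too. Dkc1 (0.26) was the one that rose. Of 28 initiation factors 3 rose and 6 fell, with Eif3f at 0.28, Eif1 at 0.22 and Eif6, which keeps the subunits apart, at -0.26. Of 77 mitochondrial ribosomal protein genes tested, 3 rose and 9 fell (median -0.01). The interferon-stimulated list moved beside these changes: all 17 genes fell (median -1.57), and their summed level went from 2412 to 2720 CPM in vehicle to 839 to 1080 CPM with GW. The 10 most counted genes of each library took 17.6% to 18.1% of counts in vehicle and 19.6% to 20.05% with GW. A fixed set, the 10 genes outside the members most counted over the microglial libraries, was left out as well. The log2 ratio of the member share was then 0.29. Other marker lists moved as well. The summed level of homeostatic microglia markers went from 936 to 965 CPM in vehicle to 1175 to 1201 CPM with GW, that of macrophage markers from 40839 to 42932 CPM to 45082 to 45976 CPM, that of astrocyte markers from 38.2 to 40.4 CPM to 44.4 to 50.3 CPM, and that of the cholangiocyte list, in which 1 of 3 tested genes rose, from 9236 to 9999 CPM to 11261 to 12029 CPM. The part of the interferon-stimulated genes and of these lists in the result was not tested.

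Saringosterol raised fewer of the members in microglia. The share was 0.657%, 0.654% and 0.658% against 0.590%, 0.610% and 0.613% in vehicle, a log2 ratio of 0.12 with no overlap. Of the 84 members 17 rose and none fell (median 0.12), where 4.19% of all genes rose and 6.66% fell. All 17 were core genes, 11 of 50 Rpl and 6 of 34 Rps genes. In 39 members every saringosterol library lay above every vehicle library, where 11.5% of all genes did so. Without vehicle replicate 1, or without vehicle replicate 2, 9 rose. The 5 largest rises were those of Rpl23a, Rpl21, Rpl3, Rpl30 and Rpl38.

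Rpl3 read 137.5, 142 and 130 CPM with saringosterol, above each vehicle value given above, a rise of 0.29 ± 0.05 (adjusted p = 3.5e-05, edgeR). Rpl21 went from 35.3, 33.0 and 36.4 CPM to 46.4, 40.8 and 42.6 CPM (0.30 ± 0.06, adjusted p = 0.0013). Rpl23a, of which 62.3% of the exon bases overlap other genes, went from 5.78, 5.68 and 4.99 CPM to 7.55, 6.92 and 7.95 CPM (0.43 ± 0.13), and lost its call without vehicle replicate 2 or 3 or saringosterol replicate 1 or 3 (0.39 to 0.46). Rpl30 (0.25 ± 0.07) and Rpl38 (0.23 ± 0.06) had adjusted p-values of 0.019 and 0.011; Rpl30 lost its call without vehicle replicate 1 or 2 or saringosterol replicate 2 (0.22 to 0.24), and Rpl38 without saringosterol replicate 3 (0.16). Of the 40 biogenesis genes, 13 rose and 1 fell with saringosterol (median 0.12), among them Gnl3 (0.37), Nolc1 (0.27) and Nhp2 (0.29). The 17 interferon-stimulated genes fell here too (median -0.86, 1450 to 1499 CPM), and the astrocyte markers summed to 25.4 to 30.9 CPM; their part was not tested.

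The 2 compounds were given at different doses, 10 µM and 1 µM, and their comparisons with vehicle share the vehicle libraries. Set directly against each other in microglia, 47 of the 84 members were lower with saringosterol than with GW and 2 higher (median -0.19), where 12.9% of all genes were lower and 12.5% higher. The 2 higher were Rps19bp1 (0.30) and Rpl7l1 (0.13), of which 1 was called without GW replicate 1 or 3. With library totals 31 were lower and 4 higher. Rps27 differed by -0.48 ± 0.06, Rpl13 by -0.48 ± 0.08, Rpl10a by -0.37 ± 0.06 and Rpl3 by -0.23 ± 0.05, whereas Rpl21 differed by -0.01 ± 0.06 and Rpl23a by -0.00 ± 0.12, neither past the test.

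**Figure D4:**
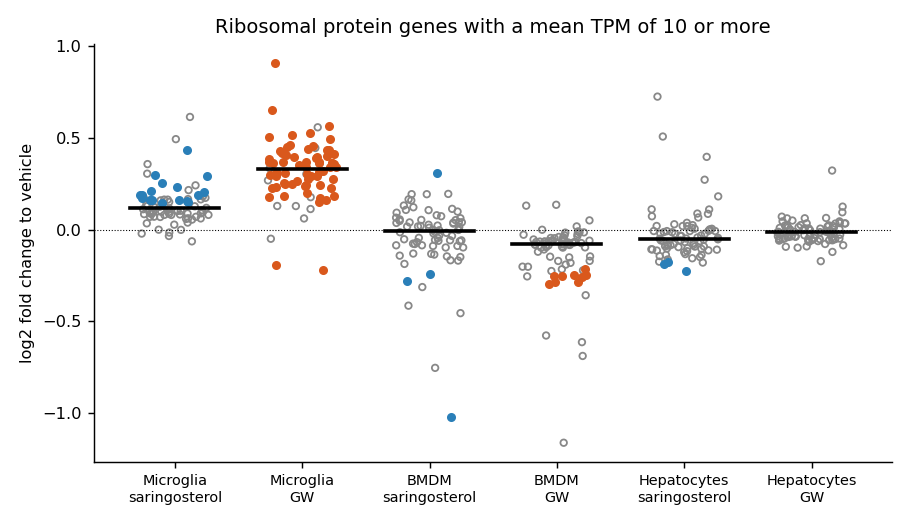
Log2 fold change to vehicle (y axis) of the genes with a mean TPM of 10 or more in the 6 treatment comparisons; each point is a gene, filled points passed an adjusted p of 0.05, and horizontal bars are medians. The microglia with GW stand above 0 almost as a block, the microglia with saringosterol lie slightly above 0, and the other 4 columns lie at or just below 0; the comparisons within a cell type share the vehicle libraries.

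In BMDM few of these genes passed the test with either compound. With GW the share was 0.711%, 0.676% and 0.643%, below every vehicle library (0.750%, 0.732% and 0.714%), a log2 ratio of -0.11. With the 10 genes outside the members most counted over the BMDM libraries left out, the ratio was -0.09 and the groups overlapped. The shares were then 0.868%, 0.822% and 0.785% with GW and 0.894%, 0.878% and 0.857% in vehicle. Of the 85 members tested, 9 fell and none rose (median -0.08), where 4.76% of 15416 genes fell and 5.66% rose (10.4% in either direction); 81 of the 85 had a negative estimate. This count rests on single libraries: none fell without vehicle replicate 1 or GW replicate 3, 1 without GW replicate 2 and 2 without vehicle replicate 2. With library totals 16 fell. Beside this, mitochondrial genes took 0.370% to 0.454% of counts with GW and 0.512% to 0.625% in vehicle. The 10 most counted genes of each library took 17.8% to 18.2% against 16.4% to 16.8%. Neutrophil markers summed to 45.1 to 55.0 CPM with GW and 75.8 to 83.8 CPM in vehicle, endothelial markers to 144 to 146 CPM against 84.4 to 94.6 CPM, and interferon-stimulated genes to 274 to 319 CPM against 475 to 692 CPM. The part of these in the result was not tested.

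The falls were in Rpl39, Rps21, Rps27l, Rpl35a and Rpl38, among others. Rps27l went from 168, 150 and 143 CPM to 124, 130 and 116 CPM (-0.28 ± 0.06, adjusted p = 0.0049, edgeR), with no overlap. Rpl39, which lines the exit tunnel, went from 37.9, 35.1 and 31.4 CPM to 29.7, 27.1 and 26.3 CPM (-0.30 ± 0.08), and Rps21 from 41.3, 37.6 and 34.3 CPM to 31.3, 30.0 and 29.4 CPM (-0.29 ± 0.08). Rpl35a (-0.26) and Rpl38 (-0.25) had adjusted p-values of 0.039 and 0.036. All 5 lost their call without vehicle replicate 1 or GW replicate 3.

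Saringosterol in BMDM left the share at 0.724%, 0.730% and 0.734%, within the range of the vehicle libraries (log2 ratio -0.01). By summed TPM the direction turned, with 12733, 13143 and 13120 TPM against 12659, 12523 and 12247 TPM in vehicle (log2 ratio 0.06) and no overlap. Macrophage markers summed to 26049 to 27993 CPM with saringosterol and 32734 to 34423 CPM in vehicle, and mitochondrial genes took 0.358% to 0.444% of counts against 0.512% to 0.625%; their part was not tested. Rpl21 rose, from 38.5, 35.9 and 35.8 CPM to 42.7, 46.8 and 46.9 CPM (0.31 ± 0.07, adjusted p = 0.0068), and Rps27rt (-1.02 ± 0.30), Rps27 (-0.28 ± 0.07) and Rps21 (-0.24 ± 0.08) fell; 5.53% of all genes rose and 5.12% fell. The median of the 85 members was -0.01, and neither the 1 rise nor the 3 falls were above these shares of all genes. Without the third saringosterol library, which stood apart in the interferon-stimulated list, 2 members rose and 1 fell; without saringosterol replicate 1, 3 rose, and without vehicle replicate 3, 2 rose. Without saringosterol replicate 2, 1 fell, and none fell without vehicle replicate 1 or 2. Against GW directly, 9 members were higher with saringosterol and none lower (median 0.10), where 4.57% of all genes were higher, 4.75% lower and 9.33% either, led by Rpl5 (0.26); without GW replicate 3 none was, without GW replicate 2 or saringosterol replicate 2 there were 4, and without saringosterol replicate 3 there were 5.

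**Figure D5:**
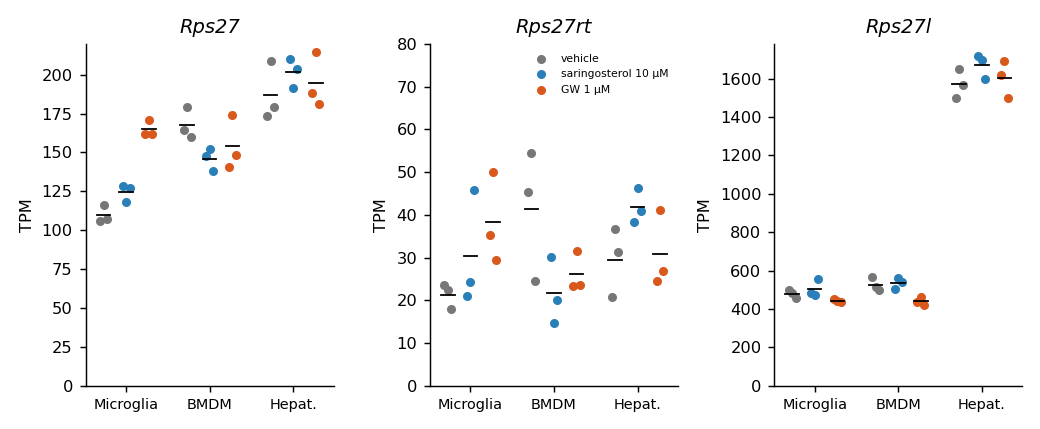
TPM of Rps27, Rps27rt and Rps27l in each library (y axis, a linear scale from 0 that differs between the panels), by cell type and treatment; points are libraries and lines are group means. Rps27 in microglia rises from 110 TPM in vehicle to 165 TPM with GW, Rps27rt stays below 55 TPM with a wide spread, and Rps27l is highest in hepatocytes at about 1570 to 1670 TPM.

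Few members changed in hepatocytes. With saringosterol the share was 1.23%, 1.15% and 1.12%, against 1.22%, 1.19% and 1.20% in vehicle (log2 ratio -0.04), and the groups overlapped. Of the 84 members tested 3 fell and none rose (median -0.05), where 1.02% of 16098 genes fell and 0.888% rose (1.91% either): Rpl3 by -0.23 ± 0.05, Rpl13 by -0.19 ± 0.05 and Rpl10 by -0.18 ± 0.05. Rpl3 read 221, 208 and 218 CPM in vehicle and 202, 177 and 181 CPM with saringosterol, without overlap. Rpl3, Rpl13 and Rpl10 have few windows of their own (14.4%, 19.7% and 7.87%). All 3 calls were lost without vehicle replicate 1 or 3 or saringosterol replicate 2 or 3; without vehicle replicate 2, 8 fell and 2 rose, and without saringosterol replicate 1, 6 fell.

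With GW in hepatocytes no member was called by edgeR, where 0.721% of all genes rose, 0.385% fell and 1.11% did either, and 1 member had an unadjusted p under 0.05; DESeq2 called none. The median was -0.01 and the share 1.22%, 1.19% and 1.15% (log2 ratio -0.02). Between saringosterol and GW edgeR called no member, where 1.96% of all genes were called, with 10 members at an unadjusted p under 0.05 and none called by DESeq2. Without saringosterol replicate 1, 3 members were lower with saringosterol.

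The responses of the cell types were compared directly as interaction terms in the fit of all 27 libraries. For GW, 64 of 86 members responded more strongly upwards in microglia than in BMDM and none the other way (median difference 0.43), where 4.43% of all genes did, 5.28% did the opposite and 9.71% were called in all; Rps27 had the lowest adjusted p, with 0.79 ± 0.10 (adjusted p = 1.6e-06, edgeR), Rps27rt differed by 1.59, and Rpl3 differed by 0.53 and Rpl10a by 0.58. Against hepatocytes, 54 of the 86 responded more in microglia and none less (median 0.36), beside 5.05% and 3.64% of all genes, with Rpl3 at 0.72 ± 0.08 and Rpl10a at 0.68 ± 0.10. Between BMDM and hepatocytes 1 of the 86 members differed, Rps27l (-0.29 ± 0.08), which is no more than the 1.60% of all genes. None did without BMDM vehicle replicate 1, BMDM GW replicate 3, hepatocyte vehicle replicate 1 or 3 or hepatocyte GW replicate 1 or 2. The count was 2 without hepatocyte vehicle replicate 2 or GW replicate 3, and 4 without BMDM vehicle replicate 3 or GW replicate 1. The 3 comparisons share libraries with each other.

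For saringosterol the differences were fewer. The response of Rps21 (0.45 ± 0.10) and of Rps27 (0.44 ± 0.10) was higher in microglia than in BMDM, where both fell; in microglia their estimates were 0.22 and 0.17 and did not pass the test. The count of 2 stands beside 0.769% of all genes (2.01% in either direction). It was 1 without microglial saringosterol replicate 3 or BMDM vehicle replicate 2, 4 without microglial saringosterol replicate 1 or BMDM saringosterol replicate 2, and 5 without BMDM vehicle replicate 3 or saringosterol replicate 1. Against hepatocytes, 7 of 86 members responded more in microglia (0.906% of all genes), with Rpl3 (0.56 ± 0.08) and Rpl21 (0.47 ± 0.09) the strongest. Between BMDM and hepatocytes, 10 of 86 were higher and 3 lower in their response, beside 6.98% and 3.13% of all genes (10.1% in all). The count of 3 is close to the share of all genes. Rpl21 (0.49) and Rpl3 (0.39) were among the higher and Rps27rt (-1.485) among the lower. The count of 7 was 2 without microglial vehicle replicate 1 or 2, microglial saringosterol replicate 1 or 2, hepatocyte vehicle replicate 1 or hepatocyte saringosterol replicate 2, 3 without hepatocyte saringosterol replicate 3, 4 without hepatocyte vehicle replicate 3 and 12 without hepatocyte saringosterol replicate 1. The count of 10 was 6 without hepatocyte saringosterol replicate 2. The count of 3 was 0 without BMDM vehicle replicate 2 or saringosterol replicate 3, and 1 without BMDM vehicle replicate 1, hepatocyte vehicle replicate 1 or 3 or hepatocyte saringosterol replicate 1 or 2.

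The genes outside the members whose log2 CPM followed the summed share most closely in the 9 microglial libraries were Abcg3 (Pearson's r = 0.994), Cd5l (0.994), Slc7a7 (0.991), Pltp (0.990), Abcd2 (0.990), Tcim (0.989), Apoc1 (0.988), Cep162 (0.987), Creld2 (0.987) and Hs6st1 (0.986). Pltp, Cd5l and Apoc1 are known targets of the liver X receptors. Any gene graded over the treatment groups as the share is ranks high here, and a link of these targets to the members was not tested. In BMDM the closest was Rexo2 (0.984), followed by Timm17a (0.968) and Lsm4 (0.965), and in hepatocytes Cox4i1 (0.953). These values describe 9 libraries that share 3 treatment groups, and the member share and the genes come from the same libraries.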

How the data were processed

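Per the labels' protocols, cDNA was primed with oligo-dT by a low-input kit. Reads were aligned with STAR 2.5.1a to GRCm38 and counted with featureCounts 1.4.6-p5, per the submitters' processing notes. For the annotation release, the strand setting and multi-mapping reads, nothing is stated in the labels. The authors deposited whole read counts and TPM values per gene, and the deposited gene lengths behind the TPM are a further column. Counts in the series table and in the single files did not differ, and 0 columns were left unmapped. Levels are the deposited TPM or CPM computed from the counts, as mean over 3 libraries with SD. Library totals were 30295862 to 41040268 counts, so precision is limited by the number of libraries; counting error alone allows 3 counts where none was seen.

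The tests used edgeR 4.0.16 (R 4.3.3), quasi-likelihood with TMM scaling and filterByExpr, on all genes, with the 9 libraries of a cell type fitted together and the comparisons between cell types fitted on all 27; adjusted p-values are Benjamini-Hochberg over all genes tested. The summed share has no test. Named were the 5 largest called rises and falls of each comparison with vehicle or between vehicle groups, the paralogs and rule-edge genes with their partners, the 5 highest, lowest, most and least variable members, and the 10 genes most like the share; other genes came from lists. Members and lists were chosen with earlier results of these data known. Alternatives were DESeq2 1.42.0, library totals, TMM without the members, no filter, a replicate block and leaving out each library. Uniqueness was the share of 50-base windows of the principal GENCODE M21 transcript found in no other gene's transcripts. Promoters came from RefSeq (GRCm38.p6), with 64 of 90 members matched. A few genes that the rules name are not reported here.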

Additional observations from a re-analysis of the deposited data

Results flagged for a closer look

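Responses that differed between cell types by the interaction test of edgeR were set aside for a closer look. For saringosterol, the response of 2 members was higher in microglia than in BMDM, beside 0.769% of all genes, with Rps21 (0.45 on the log2 scale) at the lowest adjusted p. Between microglia and hepatocytes that of 7 was, beside 0.906% of all genes, with Rpl3 (0.56) first. Between BMDM and hepatocytes the response of 10 of 86 was higher and that of 3 lower in BMDM, beside 6.98% and 3.13% of all genes, with Rpl21 (0.49) first. The count of 3 is close to the share of all genes, and was 0 or 1 when some single libraries were left out. For GW, the response of 64 members was higher in microglia than in BMDM (4.43% of all genes), with Rps27 (0.79) at the lowest adjusted p, and that of 54 higher than in hepatocytes (5.05%), with Rpl3 (0.72) first. Between BMDM and hepatocytes 1 of 86 members responded less in BMDM, Rps27l (-0.29), which is no more than the 1.60% of all genes.

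The summed share of the 90 genes moved in opposite ways with GW: each microglial library lay above every vehicle library (log2 ratio 0.26) and each BMDM library below every vehicle library (log2 ratio -0.11). With the 10 most counted genes outside the members left out, the BMDM groups overlapped (0.868% in 1 GW library against 0.857% in 1 vehicle library). The difference between these 2 ratios was not tested.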

How the results depend on the processing

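Whether samples with the same replicate number in different groups share a preparation is not stated in the labels. Over 27 same-numbered pairs, the correlation of deviations ran from -0.148 to 0.111, with 1 over 0.1. Over 54 differently numbered pairs it ran from -0.132 to 0.116, with 3 over 0.1. Deviations from means of 3 libraries cannot show that no preparation was shared. With the number as a replicate block, 63 members rose with GW in microglia (65 without), and Rps27rt lost its call there (0.90). The block gave 2 rises for saringosterol in BMDM, 1 rise and 8 falls for saringosterol in hepatocytes, 1 fall for GW there, 3 lower between the compounds there, 5 higher for the saringosterol response of microglia against BMDM and 4 lower for the GW response of BMDM against hepatocytes.

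With DESeq2, 28 members rose with saringosterol in microglia, 3 rose in BMDM and 6 fell in hepatocytes; in the saringosterol responses 7 were higher and 1 lower between microglia and BMDM, 16 higher between microglia and hepatocytes and 17 higher between BMDM and hepatocytes, and in the GW response 4 were lower between BMDM and hepatocytes. With library totals, 26 rose with saringosterol in microglia, 4 were higher and 31 lower between the compounds there, 2 rose and 1 fell with saringosterol in BMDM, and 16 fell with GW in BMDM. Library totals also gave 1 lower between hepatocytes and microglia, 4 lower between hepatocytes and BMDM, 5 and 3 higher for the saringosterol response of microglia against BMDM and hepatocytes, and 1 and 5 lower for the GW response of microglia and of BMDM against hepatocytes. TMM without the members gave 4 higher for saringosterol between microglia and BMDM and 3 lower for GW between BMDM and hepatocytes. Without the filter, 2 rose with saringosterol in BMDM, 5 fell in hepatocytes and 5 were higher between microglia and BMDM. By library totals these genes changed sign: Rpl26 (0.0186) and Rps29 (0.0250) between hepatocytes and microglia, and Rpl10 (0.36), Rpl22 (0.24), Rps19 (0.23) and Rps27 (0.14) between hepatocytes and BMDM. The share ratio was 0.29 for GW in microglia without the 10 most counted other genes, and 0.0592 for saringosterol in BMDM from summed TPM, against -0.01 from counts. The cause of these shifts was not tested. Shares of all genes called under each alternative are not given in this section. Its counts therefore describe only how the member counts depend on the setting, not the members against all genes.

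Leaving out 1 library at a time, the rises with saringosterol numbered 9 to 18 in microglia, 1 to 3 in BMDM and 0 to 2 in hepatocytes, and the falls 0 to 4 in BMDM and 0 to 8 in hepatocytes. With GW, falls numbered 1 to 2 in microglia and 0 to 12 in BMDM. Between the compounds, 1 to 2 were higher in microglia, 0 to 9 higher in BMDM and 0 to 3 lower in hepatocytes. In the saringosterol responses, 1 to 5 were higher between microglia and BMDM, 2 to 12 between microglia and hepatocytes, and 6 to 15 higher and 0 to 4 lower between BMDM and hepatocytes, and in the GW response 0 to 4 were lower there. Of 191 values of single genes, 21 lost their call and 16 gained one under at least 1 alternative, and 6 changed sign. With 3 libraries a group, differences near the size of the replicate spread were not detectable, and members whose reads fit other genes carry an error that depth does not reduce.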
